A study of Mus musculus with 30 samples.

Results

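The proteasome subunit genes of differentiated mouse C2C12 cells are described here across 10 treatment groups. They were chosen by symbol, as every one of the deposited expression table that is Psma, Psmb, Psmc, Psmd, Psme, Psmf or Psmg followed by a number, which gave 47 of 16025 symbols. The 20S core took 14 of them, with 7 alpha ring genes (Psma1 to Psma7), 4 structural beta genes (Psmb1 to Psmb4) and 3 catalytic beta genes (Psmb5, Psmb6, Psmb7). The 19S cap took 17, with 6 ATPase genes (Psmc1 to Psmc6) and 11 non-ATPase genes of the Psmd group. The other 16 were 3 immunoproteasome genes (Psmb8, Psmb9, Psmb10), the thymus form Psmb11, 3 cap assembly chaperones (Psmd5, Psmd9, Psmd10), 4 activators (Psme1 to Psme4), the inhibitor Psmf1 and 4 core assembly chaperones (Psmg1 to Psmg4). A minimum count left 45 of the 47 for testing, all but Psmb9 and Psmb11.

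The proteasome is the barrel-shaped protease that degrades proteins tagged with ubiquitin. Its 20S core is a stack of alpha and beta rings with the catalytic sites inside, and its 19S cap binds the ubiquitin chain, unfolds the protein with a ring of ATPases and feeds it into the core. When degradation falls short, the transcription factor NRF1, encoded by Nfe2l1, raises the subunit genes together. Interferon signalling replaces the catalytic subunits by the immunoproteasome forms, whose products feed antigen presentation. In skeletal muscle the ubiquitin-proteasome route carries much of the protein breakdown of atrophy.

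C2C12 is a mouse myoblast line whose cells fuse into multinucleated myotubes in low serum. Wildtype myotubes received a ginseng preparation for 12 h and then D-galactose, a sugar given at 20 mg/mL for 24 h to induce cellular aging, and the comparisons ask how each preparation and the sugar altered the transcriptome. The tested groups were RGW plus D-galactose, SFr plus D-galactose, NSFr plus D-galactose, Rb2 plus D-galactose, D-galactose alone, RGW, SFr, NSFr and Rb2, and the last was the Vehicle control. RGW is a water extract of Korean Red Ginseng, SFr its saponin fraction and NSFr its non-saponin fraction, each at 100 μg/mL, and Rb2 is a single ginsenoside, a ginseng saponin, at 20 μM. Each group held 3 poly(A) libraries, which the submitters call biological replicates, and nothing else says whether they came from separate cultures, so the p-values measure the spread between these libraries. The preparation-alone groups are labelled with 12 h, without a statement of what followed, so in comparisons of a preparation plus D-galactose with the preparation alone the time in culture and the sugar may both differ.

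The libraries summed to 22209306 to 30218420 expected counts, and levels are given as CPM, counts relative to the scaled total of the library. A level of 3 counts corresponds to 0.0978 to 0.134 CPM. The myotube label was borne out by 8 muscle genes (Ckm, Myh3, Myog, Acta1, Actn2, Des, Tnnt3, Mybph), whose sum was 20529 to 21104 CPM in D-galactose and 20833 to 21152 CPM in Vehicle control libraries. Their sum was lower in saponin-treated libraries, at 18173 to 18591 CPM in SFr plus D-galactose and 16523 to 17595 CPM in SFr. The muscle genes did not all move alike. Des averaged 5079 CPM in SFr and 4206 CPM in Vehicle control, while every other gene of the list averaged lower in SFr. Myh3, for one, averaged 2113 CPM in SFr and 4192 CPM in Vehicle control. The fibroblast markers Pdgfra, Dcn and Thy1 summed to 297 to 311 CPM in SFr plus D-galactose and 325 to 345 CPM in SFr, against 144 to 148 CPM in D-galactose and 138 to 148 CPM in Vehicle control, and most of it was Dcn, with Thy1 at or near 0. Of the 5 leukocyte markers 3 were in the table, and their sum of 5.51 to 5.77 CPM in SFr plus D-galactose, against 1.63 to 2.14 CPM in D-galactose, was mostly Cd68, while the defining marker Ptprc had at most 1 count in a library. The 4 myoblast and proliferation markers Pax7, Myf5, Myod1 and Mki67 summed to 256 to 258 CPM in SFr plus D-galactose and 256 to 278 CPM in SFr, against 292 to 318 CPM in D-galactose and 327 to 335 CPM in Vehicle control. Endothelial markers stayed under 1 CPM and fat markers under 0.3 CPM. In bulk RNA fewer cells of a type and less RNA per cell cannot be told apart, and the part of these markers in the results below was not tested.

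Summed over a library, the 14 core genes reached 1731 to 2340 CPM and the 17 cap genes 3534 to 4234 CPM. Divided by the length of the principal transcript, the highest level in Vehicle control libraries was that of Psmc3, a cap ATPase, at 264 ± 19 CPM per kilobase (SD, n = 3). It was followed by the structural core gene Psmb3 at 214 ± 14.7, the cap gene Psmd8 at 207 ± 12.3 and the catalytic gene Psmb7 at 205 ± 13.6 CPM per kilobase. The catalytic Psmb6 stood at 182 ± 13.8 and the catalytic Psmb5 at 97.1 ± 8.74 CPM per kilobase. Outside the immunoproteasome and thymus genes the inhibitor Psmf1 was lowest, at 8.94 ± 0.635 CPM per kilobase. This order depended on the length used: by the length of all annotated exons Psmc3 was again highest, at 165 CPM per kilobase, but Psmb3 at 71.4 and Psmb7 at 69.5 lay below the ATPase gene Psmc5 at 124, and the chaperone gene Psmg3 at 4.40 lay below Psmf1 at 5.29. Outside the immunoproteasome and thymus genes, from the lowest to the highest of the 30 libraries, the level of the activator Psme3 moved by 1.14-fold, that of Psma5 by 1.59-fold and that of the core chaperone Psmg4 by 1.76-fold.

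**Figure D1:**
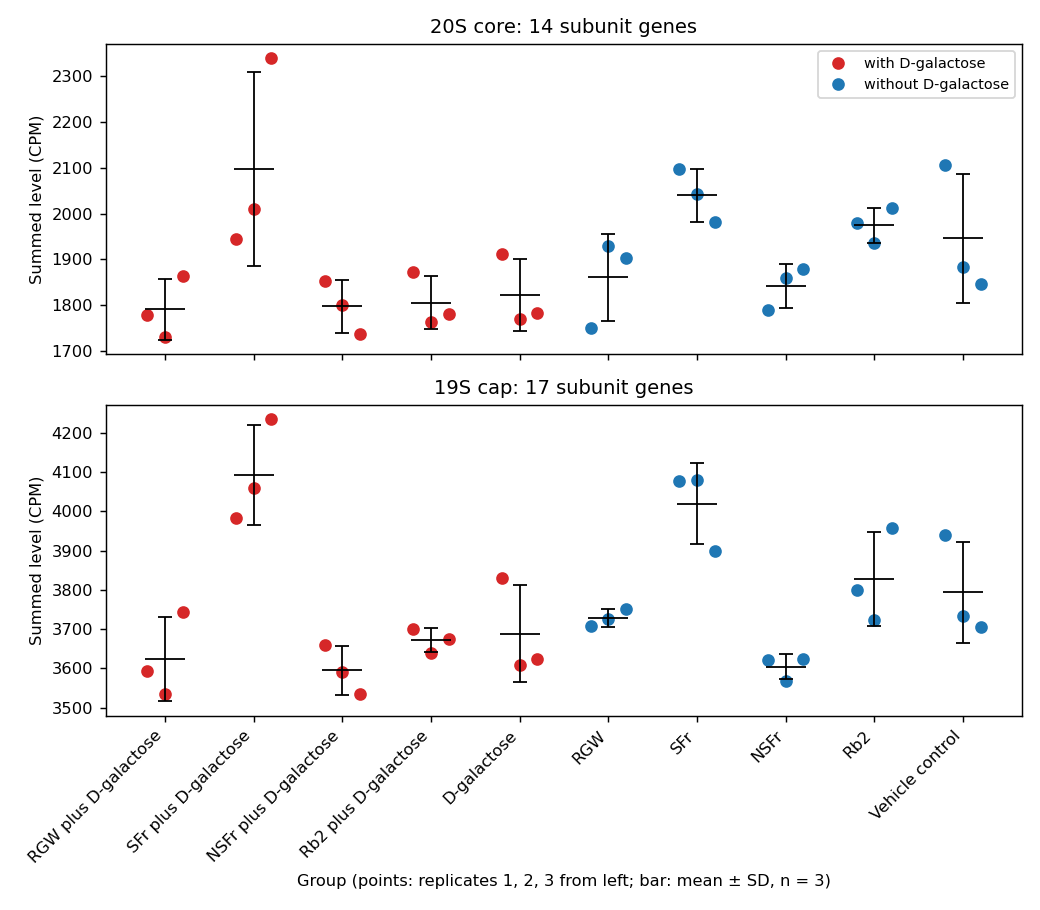
Summed level in CPM of the 14 core genes (top) and the 17 cap genes (bottom) in each library of the 10 groups, with bars for the mean ± SD (n = 3). The SFr plus D-galactose libraries sit between 1944 and 2340 CPM for the core and between 3984 and 4234 CPM for the cap, above all 3 D-galactose libraries in both panels.

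D-galactose changed few proteasome genes, and mostly lowered them. Against Vehicle control 1 of 45 members rose and 6 fell (edgeR, adjusted p under 0.05), where 11.9% of all 12184 genes rose and 13.1% fell, so the members' share that fell was near that of all genes and the share that rose was lower. The median log2 fold change was -0.06 over the members and 0.00 over all genes. The largest fall was in Psmb6, the catalytic subunit that cleaves after acidic residues, which measured 127, 119 and 118 CPM in D-galactose, against 156, 146 and 134 CPM in Vehicle control libraries. The groups did not overlap, and the log2 fold change was -0.26 ± 0.07 (SE), adjusted p = 0.00509 by edgeR. Psmc3, which had the highest level per kilobase, measured 395, 366 and 369 CPM in D-galactose and 466, 422 and 406 CPM in Vehicle control. It too fell without overlap, with a log2 fold change of -0.20 (adjusted p = 0.00098, edgeR).

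The other members lower in D-galactose were Psma2 and Psma7 of the alpha ring, Psmd8 of the cap and Psmd9, a chaperone of cap assembly. Psmd8 measured 292, 288 and 281 CPM in D-galactose and 341, 312 and 305 CPM in Vehicle control, with no overlap and a log2 fold change of -0.15 (edgeR, adjusted p = 0.0121). Psma2 at -0.16 and Psmd9 at -0.21 also separated the groups, while Psma7 at -0.19 overlapped and passed narrowly (edgeR, adjusted p = 0.0498). The other catalytic genes did not pass: the log2 fold change was -0.09 for Psmb5 and -0.09 for Psmb7. The inhibitor Psmf1, also called PI31, was the member that rose, at 38.7, 39.0 and 41.5 CPM in D-galactose and 32.2, 33.1 and 36.8 CPM in Vehicle control. All 3 D-galactose libraries lay above the Vehicle control ones, and the log2 fold change was 0.23 ± 0.05 (SE, adjusted p = 0.00106, edgeR). Without Vehicle control library 1, whose core sum of 2107 CPM stood above the 1885 and 1847 CPM of the others, 2 members fell in place of 6. Psmc3 was among the 2. Without D-galactose library 2, 3 fell, while Psmf1 was called with each library left out. How many of all genes fell in these fits is not given here.

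The saponin fraction alone raised a minority of members, most of them cap genes. Against Vehicle control 11 members rose and 2 fell (edgeR, adjusted p under 0.05), beside 21.3% higher and 21.8% lower among all genes. The share of members higher was thus near that of all genes and the share lower was smaller. In the cap 7 of 17 rose and 1 fell, and in the core 2 of 14 rose, a difference in shares that was not tested. The alpha ring gene Psma5 rose most, at 146, 148 and 144 CPM in SFr, against 128, 110 and 116 CPM in Vehicle control. Every SFr library was above every Vehicle control library, and the log2 fold change was 0.31 ± 0.06 (SE, adjusted p = 8.99e-05, edgeR). Psma1, also of the alpha ring, had a log2 fold change of 0.19.

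Psmd2, the large cap subunit on which ubiquitin shuttle proteins dock, measured 530, 518 and 506 CPM in SFr and 438, 446 and 443 CPM in Vehicle control. This was the cap gene that rose most, with a log2 fold change of 0.23 ± 0.03 (SE, adjusted p = 9.35e-07, edgeR). Psmd1, Psmd3, Psmd7, Psmd11, the ubiquitin receptor Psmd4 and the ATPase Psmc4 were the other cap genes that rose. Their log2 fold changes were 0.11 to 0.17. Psmc4 passed in only 5 of 12 alternative settings. Outside core and cap, the activator gene Psme1 at 0.22 and the inhibitor Psmf1 at 0.18 were higher. Psme1 passed in 8 of the 12 alternatives and Psmf1 in all 12. The catalytic genes stayed close to Vehicle control, with log2 fold changes of 0.08 for Psmb5, -0.02 for Psmb6 and 0.00 for Psmb7.

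Psmc3, the ATPase gene that also fell in D-galactose, was lower in SFr, at 361, 378 and 366 CPM, against 466, 422 and 406 CPM in Vehicle control. The groups did not overlap, and the log2 fold change was -0.23 ± 0.04 (SE, adjusted p = 5.16e-05, edgeR), called in all 12 alternatives. The cap chaperone Psmd10, also called gankyrin, was the other member to fall, at 40.4, 37.8 and 38.3 CPM in SFr and 49.6, 44.7 and 42.7 CPM in Vehicle control (log2 fold change -0.24, adjusted p = 0.00106, edgeR). The count of members higher was 20 without Vehicle control library 1, and 16 without SFr library 3. The shares of all genes higher in those fits are not given here.

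With no covariate in the fit, most of the family, catalytic genes included, was higher with the saponin fraction before D-galactose. In SFr plus D-galactose against D-galactose 26 of 45 members rose and none fell (edgeR, adjusted p under 0.05), beside 20.3% higher and 21% lower among all genes. The rise took in 10 of 14 core genes, all 3 catalytic genes among them, and 12 of 17 cap genes. The median log2 fold change was 0.15 over the members and -0.01 over all genes. Individual changes were small, and the largest among core and cap genes was 1.31-fold. A fit described below takes in each library's balance of short and long transcripts. It called 15 members higher, beside 18.8% of all genes, and Psmb6 and Psmb7 were not among them.

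Psma7 of the alpha ring measured 110, 113 and 135 CPM in SFr plus D-galactose, against 96.8, 87.0 and 90.2 CPM in D-galactose. The groups did not overlap, with the highest value in SFr plus D-galactose library 3, and the log2 fold change was 0.39 ± 0.07 (SE, adjusted p = 8.68e-05, edgeR). Psma5 stood at 136, 139 and 161 CPM in SFr plus D-galactose and 127, 107 and 110 CPM in D-galactose, a log2 fold change of 0.34 (edgeR, adjusted p = 2.42e-05). Psma3 changed least among the called alpha genes, at 0.14, and its groups overlapped. The structural beta gene Psmb4 measured 154, 159 and 196 CPM in SFr plus D-galactose and 150, 119 and 127 CPM in D-galactose (log2 fold change 0.37, edgeR, adjusted p = 0.00117). Here the lowest treated library was only just above the highest D-galactose library, and library 3 stood apart above the rest.

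Each of the 3 catalytic genes was called higher in the fit with no covariate. Psmb5, which carries the chymotrypsin-like site that bortezomib blocks, measured 95.0, 98.4 and 118 CPM in SFr plus D-galactose, against 87.4, 79.8 and 79.0 CPM in D-galactose. The groups did not overlap, and the log2 fold change was 0.34 ± 0.09 (SE, adjusted p = 0.0036, edgeR). Psmb6 measured 136, 134 and 161 CPM in SFr plus D-galactose and 127, 119 and 118 CPM in D-galactose, a log2 fold change of 0.25 with no overlap. Psmb7, the trypsin-like subunit, measured 233, 242 and 279 CPM in SFr plus D-galactose and 235, 217 and 217 CPM in D-galactose. Its groups overlapped and the log2 fold change of 0.17 was not called without SFr plus D-galactose library 3, D-galactose library 2 or D-galactose library 3.

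In the cap, Psmd8 of the lid rose most, at 332, 337 and 383 CPM in SFr plus D-galactose, against 292, 288 and 281 CPM in D-galactose. The groups were well apart, with a log2 fold change of 0.29 ± 0.05 (SE, adjusted p = 3e-06, edgeR). Psmd7, the partner of the deubiquitinase in the lid, stood at 194, 201 and 205 CPM in SFr plus D-galactose and 172, 166 and 168 CPM in D-galactose (log2 fold change 0.24, edgeR, adjusted p = 1.78e-06), with each treated library above each D-galactose one. The ubiquitin receptor Psmd4 rose by a log2 fold change of 0.23. Among the ATPases Psmc2 rose most, at 167, 174 and 181 CPM in SFr plus D-galactose and 160, 145 and 148 CPM in D-galactose (log2 fold change 0.20, edgeR, adjusted p = 0.000119), again without overlap. Psmc3 was the exception in its ring, at 358, 367 and 396 CPM in SFr plus D-galactose and 395, 366 and 369 CPM in D-galactose, with a log2 fold change of -0.01. The cap genes Psmc6, Psmd1, Psmd13 and Psmd14 did not pass.

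Of the regulators, the nuclear activator gene Psme4, whose product is PA200, measured 392, 383 and 377 CPM in SFr plus D-galactose and 350, 343 and 344 CPM in D-galactose. The groups did not overlap and the log2 fold change was 0.15 ± 0.04 (SE, adjusted p = 0.00108, edgeR). Psme2, which with Psme1 forms the interferon-inducible activator PA28, measured 40.5, 38.4 and 52.5 CPM in SFr plus D-galactose and 39.6, 32.8 and 35.4 CPM in D-galactose. The groups overlapped, the log2 fold change of 0.29 was not called without SFr plus D-galactose library 3, and reads of the near-identical gene Psme2b, at 1.1 to 1.4 CPM in those libraries, may be split between both. Psme1 at 0.15, the nuclear Psme3 at -0.08 and the inhibitor Psmf1 at 0.04 did not pass. The core chaperone Psmg4 had the largest log2 fold change of any member, 0.46 ± 0.11 (SE, adjusted p = 0.000745, edgeR), at 8.02, 7.84 and 10.5 CPM in SFr plus D-galactose and 6.83, 5.98 and 6.42 CPM in D-galactose. The treated libraries were all above, at low levels. With the length slope of each library as a covariate, a fit described below, Psmg4 was at 0.23 and not called (edgeR, adjusted p = 0.0652). Its partners Psmg1, Psmg2 and Psmg3 had log2 fold changes of 0.01, 0.03 and 0.06 with no covariate and did not pass.

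**Figure D2:**
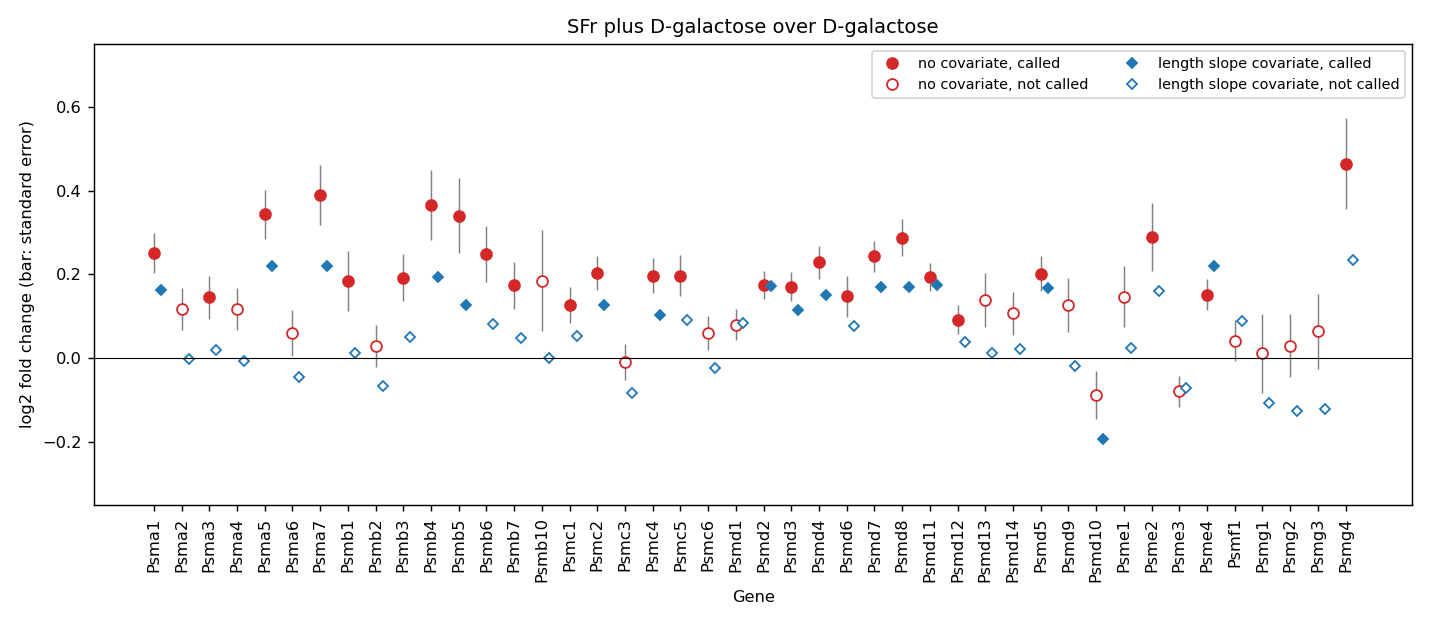
Log2 fold change of each tested member except Psmb8 in SFr plus D-galactose over D-galactose by gene, without a covariate (circles, with the standard error as a bar) and with the length slope of each library as a covariate (diamonds); filled symbols have an adjusted p under 0.05. With no covariate 26 members are called higher, and with the covariate 15 are higher and Psmd10 is lower.

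Libraries of the same group differed in the balance of short and long transcripts, and the summed level of the core genes moved with it. For each library a length slope was taken, the slope of its log2 CPM, relative to the mean of all libraries, on log2 transcript length over 12137 genes outside the family, so that a negative slope marks a library richer in short transcripts. SFr plus D-galactose library 3 had the lowest slope, -0.0994, and the highest core sum, 2340 CPM, and Vehicle control library 1 had -0.0397 and 2107 CPM. The slopes ran from -0.0994 to -0.0186 in SFr plus D-galactose and from -0.00954 to 0.0276 in D-galactose, without overlap, and from -0.0611 to -0.00978 in SFr and from -0.0397 to 0.0475 in Vehicle control. The 78 ribosomal protein genes, which have short transcripts, took 2.59% to 3.38% of a library.

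With the slope as a covariate, a fit chosen after seeing the data, 15 members were higher in SFr plus D-galactose than in D-galactose and 1 was lower, where 18.8% of all genes were higher and 19.7% lower. The 15 were all among the 26, and the median log2 fold change was 0.05. They were Psma1, Psma5, Psma7, Psmb4 and Psmb5 of the core, Psmc2, Psmc4, Psmd2, Psmd3, Psmd4, Psmd7, Psmd8 and Psmd11 of the cap, Psmd5 and Psme4. The cap kept 8 of 17 and the core 5 of 14, and Psmb6 at 0.08 and Psmb7 at 0.05 were no longer called. The slope was taken from the same expression values, and it differed between these groups without overlap. Any effect of the treatment that moves with the slope therefore cannot be told apart here from a difference between libraries. In SFr against Vehicle control the same fit gave 10 members higher, 9 of them among the 11, and 8 lower, Psmb6 at -0.15 and Psmb7 at -0.10 among the 8, beside 22.7% higher and 23.6% lower among all genes. Psmb5, not called in either fit, was at -0.08 with the covariate and 0.08 without it. In D-galactose against Vehicle control it gave 1 higher and 12 lower, beside 14.6% and 17.8% of all genes. Without SFr plus D-galactose library 3 and with no covariate, 19 members were higher and none lower. For that fit the shares of all genes higher and lower are not given here.

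**Figure D3:**
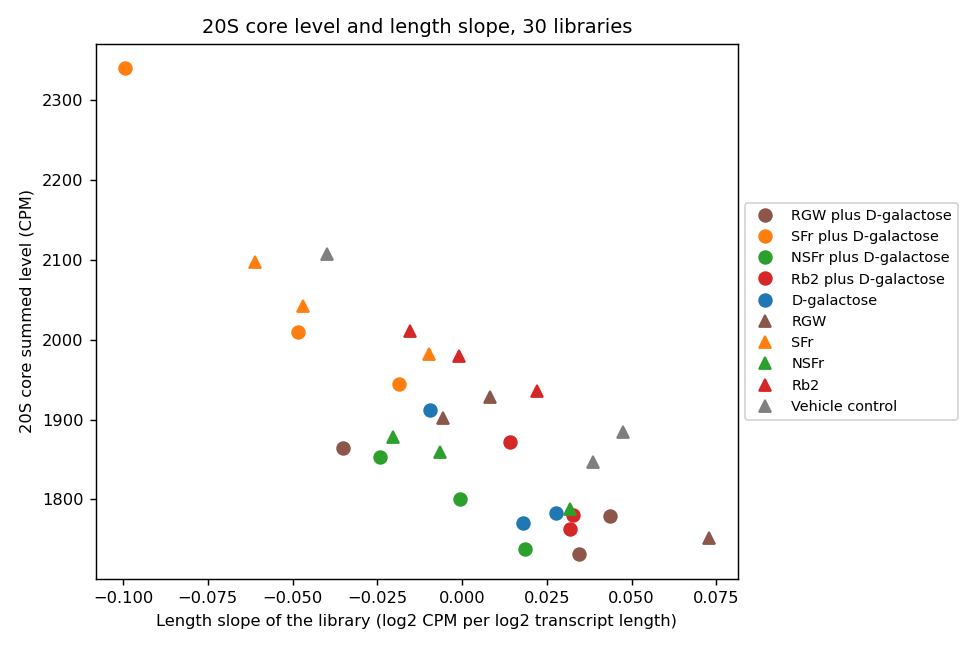
Summed level of the 14 core genes in CPM against the length slope of each of the 30 libraries, with triangles for groups without D-galactose and circles for groups with it. SFr plus D-galactose library 3 lies at the upper left, at -0.0994 and 2340 CPM, and RGW library 1 at the right, at 0.0727 and 1751 CPM.

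The SFr comparisons with and without the sugar share no library. Of the 11 members higher in SFr, 8 were also among the 26 higher in SFr plus D-galactose, which is 72.7% of the first list and 30.8% of the second. The second list held 26 of the 45 members tested, and the same overlap over all genes was not taken. Whether these shares are particular to the family was therefore not tested. The difference between both SFr effects was tested as an interaction, and 0 of 45 members passed (edgeR, with 9 at an unadjusted p under 0.05; DESeq2 also gave 0), where 0.583% of all genes did. Without Vehicle control library 3, 1 member passed, and the share of all genes in that fit is not given here. With the length slope as a covariate 5 passed, all with a positive interaction, where 3.16% of all genes did. Psma7 had an interaction of 0.29 ± 0.10 (SE, adjusted p = 0.199, edgeR) and Psmc3 one of 0.22 ± 0.06 (SE, adjusted p = 0.0914, edgeR). For Psma5 the interaction was 0.04, with log2 fold changes of 0.31 for SFr and 0.34 for SFr plus D-galactose over their own controls.

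The upstream 250 bases of Psma5, Psmb5 and Psmb6 are printed because Psma5 rose in both SFr comparisons and because Psmb5 and Psmb6 are catalytic genes that hold TGACNNNGC, the core of the antioxidant response element, a sequence bound by NRF1 and NRF2. The sequences are from RefSeq, build GRCm38.p6, written 5′ to 3′ on the strand of the gene up to the base before its start, with matches to TGACNNNGC in capitals. Psma5 lies on the plus strand, at chr3:108256676-108256925, Psmb5 on the minus strand, at chr14:54617996-54618245, and Psmb6 on the plus strand, at chr11:70525107-70525356.
Psma5: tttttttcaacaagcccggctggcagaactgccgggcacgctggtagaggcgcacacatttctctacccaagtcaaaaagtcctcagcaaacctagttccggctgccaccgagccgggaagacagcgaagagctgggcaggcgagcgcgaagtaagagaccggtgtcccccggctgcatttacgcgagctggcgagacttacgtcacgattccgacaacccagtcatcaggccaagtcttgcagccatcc
Psmb5: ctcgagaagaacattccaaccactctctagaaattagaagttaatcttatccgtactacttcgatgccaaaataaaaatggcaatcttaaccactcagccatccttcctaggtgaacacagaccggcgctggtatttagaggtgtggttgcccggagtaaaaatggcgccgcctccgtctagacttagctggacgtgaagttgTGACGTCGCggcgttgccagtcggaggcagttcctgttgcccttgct
Psmb6: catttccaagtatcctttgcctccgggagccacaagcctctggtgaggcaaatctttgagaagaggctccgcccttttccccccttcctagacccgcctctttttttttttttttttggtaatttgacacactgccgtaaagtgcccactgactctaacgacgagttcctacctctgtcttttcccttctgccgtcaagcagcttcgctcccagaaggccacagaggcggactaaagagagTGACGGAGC
The match began 47 bases before the start in Psmb5 and 9 bases before it in Psmb6, both on the strand of the gene, and Psma5 had none in this window. The table held a promoter for 40 of the 47 members. Searched on both strands, TGACNNNGC was in 5 of 38 tested members (13.2%), in 3 of the 22 with a promoter that rose in SFr plus D-galactose over D-galactose (13.6%), and in 1378 of 9683 tested genes (14.2%). CCAAT was in 12 of 38 members (31.6%) and in 40.6% of tested genes. GAAA followed by GAAA after 2 bases of any kind, the core of the interferon-stimulated response element, was in 3 of 38 members (7.89%) and in 3.05% of tested genes. The letters TGAC also open the AP-1 and cAMP response elements, and a match is a description of the letters only.

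The other preparations changed few proteasome genes or none. RGW against Vehicle control and Rb2 against Vehicle control called 0 members (edgeR, with 4 and 3 at an unadjusted p under 0.05; DESeq2 also 0), where 3.21% and 1.53% of all genes were called. RGW plus D-galactose and Rb2 plus D-galactose against D-galactose also called 0 (edgeR, 5 and 0 at an unadjusted p under 0.05; DESeq2 also 0), beside 5.06% and 2.26% of all genes. NSFr plus D-galactose against D-galactose called 0 (edgeR, 5 at an unadjusted p under 0.05), and DESeq2 called 1, beside 6.33% of all genes. Without D-galactose library 2, RGW plus D-galactose against D-galactose called 1 member, and the share of all genes in that fit is not given here. With the length slope as a covariate 2 members were called in RGW against Vehicle control, 1 in Rb2 against Vehicle control and 4 in RGW plus D-galactose against D-galactose, beside 7.28%, 3.14% and 9.71% of all genes. In NSFr plus D-galactose against D-galactose that fit gave 1 higher and 7 lower, beside 6.91% and 5.87% of all genes. These comparisons share the Vehicle control or the D-galactose libraries.

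NSFr was the exception, with 3 cap genes and a cap chaperone gene lower than in Vehicle control and no member higher (edgeR, adjusted p under 0.05), where 3.51% of all genes fell and 4.56% rose. Psmd8 measured 267, 277 and 282 CPM in NSFr and 341, 312 and 305 CPM in Vehicle control, a log2 fold change of -0.21 (edgeR, adjusted p = 0.00262). The groups did not overlap. Psmc6 of the ATPase ring, Psmd13 of the lid and the chaperone Psmd10 fell by 0.14, 0.21 and 0.18 on the log2 scale. Only 1 member fell when any NSFr library, or Vehicle control library 1, was left out, and 2 when Vehicle control library 2 was. For these fits the share of all genes lower is not given here. With the length slope as a covariate 17 members were lower and none higher, where 8.89% of all genes fell and 8.17% rose.

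Set against each other at the same dose, the saponin and non-saponin fractions differed across most of the family. In SFr against NSFr 27 members were higher and 1, Psmc3, was lower (edgeR, adjusted p under 0.05), beside 20.8% higher and 19.6% lower among all genes. In SFr plus D-galactose against NSFr plus D-galactose 32 were higher and none lower, beside 20.7% and 20.3% of all genes. Psma5 measured 146, 148 and 144 CPM in SFr and 106, 111 and 112 CPM in NSFr, a log2 fold change of 0.41 ± 0.06 (SE, adjusted p = 1.12e-06, edgeR). Psmd8 measured 332, 337 and 383 CPM in SFr plus D-galactose and 273, 267 and 271 CPM in NSFr plus D-galactose, a log2 fold change of 0.37 ± 0.05 (SE, adjusted p = 1.85e-08, edgeR). In both genes each SFr library was above each NSFr library. The catalytic Psmb5 averaged 92.6 CPM in both SFr and NSFr, with a log2 fold change of 0.00 ± 0.09 (SE). With the length slope as a covariate 19 members were higher and 3 lower without the sugar, beside 21.6% and 20.8% of all genes, and 25 higher and 2 lower with it, beside 19.7% and 20.3%.

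**Figure D4:**
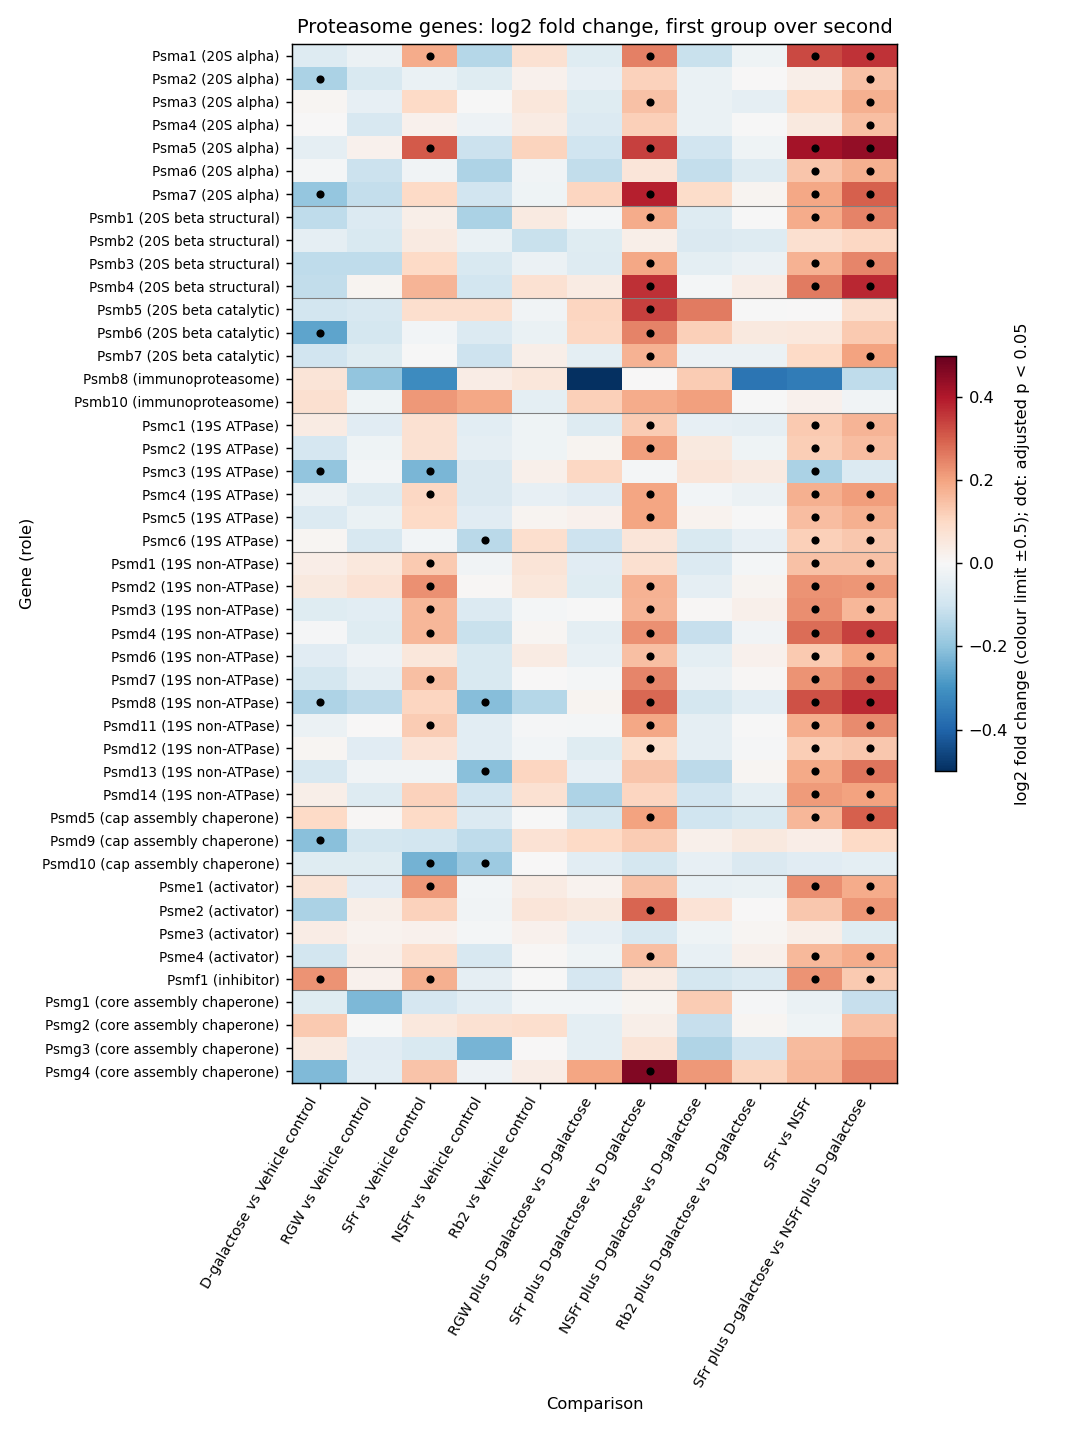
Log2 fold change of each tested member (rows, by role) in 11 of the 15 pairwise comparisons (columns), leaving out those of a preparation plus D-galactose against the preparation alone, with a dot where the adjusted p is under 0.05 (edgeR). Dots on positive values fill the columns that set SFr against NSFr, with and without D-galactose, and SFr plus D-galactose against D-galactose, where 26 of 45 are called higher, while the plotted columns without SFr hold 7 dots or fewer.

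D-galactose after a preparation, set against that preparation alone, changed 1 member each with SFr, NSFr and RGW and 8 with Rb2. SFr plus D-galactose against SFr called 1 member higher, the cap chaperone Psmd5 at 0.20, where 8.46% of all genes rose and 10.5% fell. NSFr plus D-galactose against NSFr called 1 higher, Psmf1 at 0.18, beside 5.76% and 6.98% of all genes. RGW plus D-galactose against RGW called 1 lower, Psme4 at -0.14, beside 6.3% higher and 8.93% lower among all genes. Rb2 plus D-galactose against Rb2 called 7 lower and 1 higher, beside 11.2% lower and 9.81% higher. With the length slope as a covariate RGW plus D-galactose against RGW called 8 lower and 1 higher, beside 12.1% and 9.06% of all genes, and Rb2 plus D-galactose against Rb2 11 lower and 1 higher, beside 13.2% and 11.3%. That fit called 2 members in SFr plus D-galactose against SFr and 3 in NSFr plus D-galactose against NSFr, beside 24.7% and 19.4% of all genes. The single calls were unstable. SFr plus D-galactose against SFr gave 5 without SFr plus D-galactose library 1. RGW plus D-galactose against RGW gave 0 without RGW library 1 or RGW plus D-galactose library 3, and 2 without RGW plus D-galactose library 1. NSFr plus D-galactose against NSFr gave 0 without NSFr library 2 or NSFr plus D-galactose library 3. Shares of all genes called in these fits are not given here.

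The 7 members lower in Rb2 plus D-galactose than in Rb2 were Psma1, Psma2, Psma5, Psmc3, Psmc6, Psmd9 and Psmd13. Psmc3 measured 381, 382 and 402 CPM in Rb2 plus D-galactose and 440, 422 and 454 CPM in Rb2, a log2 fold change of -0.18 (edgeR, adjusted p = 0.00335). Psmd9 had the largest fall, -0.24. The inhibitor Psmf1 rose by 0.16 on the log2 scale, at 36.5, 38.1 and 39.1 CPM in Rb2 plus D-galactose and 34.7, 33.9 and 33.3 CPM in Rb2, with no overlap. As single libraries were left out, the members called fell to 3 without Rb2 library 1 and 2 without Rb2 plus D-galactose library 2. They fell to 4 without library 3 of either group. Shares of all genes called in these fits are not given here. Psmf1 averaged 37.5 ± 2.1 CPM in RGW plus D-galactose, 41.0 ± 0.47 in SFr plus D-galactose, 37.4 ± 1.7 in NSFr plus D-galactose, 37.9 ± 1.3 in Rb2 plus D-galactose and 39.7 ± 1.6 in D-galactose (SD, n = 3 each). Without the sugar it averaged 34.5 ± 0.92 CPM in RGW, 38.5 ± 1.3 in SFr, 33.0 ± 0.84 in NSFr, 33.9 ± 0.69 in Rb2 and 34.0 ± 2.4 in Vehicle control. Whether the sugar's effect differed over the 5 backgrounds was tested in one model, and 0 members passed (edgeR, with 6 at an unadjusted p under 0.05; DESeq2 also 0), where 0.796% of all genes did. With the length slope as a covariate 3 passed, beside 2.71% of all genes. The interactions of RGW, NSFr and Rb2 with D-galactose also called 0 members each (edgeR, with 4, 1 and 1 at an unadjusted p under 0.05; DESeq2 also 0), where 0%, 0.041% and 0% of all genes passed, while the covariate gave 2 members for RGW, beside 1.08% of all genes.

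The immunoproteasome genes were scarce in every group, and neither tested one, Psmb8 or Psmb10, was called in any comparison by edgeR with all libraries. Without Vehicle control library 1 Psmb10 was called in SFr against Vehicle control, at a log2 fold change of 0.41 (edgeR, adjusted p = 0.0104), against 0.22 with all libraries. Psmb8, which replaces Psmb5, had 4 to 23 expected counts per library, or 0.162 to 0.795 CPM. Psmb9, which replaces Psmb6, had 0 to 8.6 expected counts and was at 0 in 1 library, and it stayed out of the tests. Psmb10, which replaces Psmb7, was the most abundant at 127 to 273 expected counts. In SFr plus D-galactose it measured 7.05, 6.78 and 8.90 CPM, against 7.24, 6.78 and 6.14 CPM in D-galactose, and the groups overlapped (log2 fold change 0.19 ± 0.12, SE, adjusted p = 0.224, edgeR).

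Per kilobase and as a mean of each group, Psmb8 was 0.209% to 0.339% of Psmb5, Psmb9 was 0.0281% to 0.0769% of Psmb6 and Psmb10 was 2.24% to 3.12% of Psmb7. Taking the length of all annotated exons in place of the principal transcript moved these shares to 0.101% to 0.163% for Psmb8, 0.0244% to 0.0666% for Psmb9 and 5.07% to 7.07% for Psmb10. Psmb11, the thymus form, had 0 to 3 expected counts and was at 0 in 17 of 30 libraries. Small changes of Psmb8 were not detectable at these counts: the log2 fold change of Psmb8 in SFr plus D-galactose over D-galactose was 0.00 with a standard error of 0.40.

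**Figure D5:**
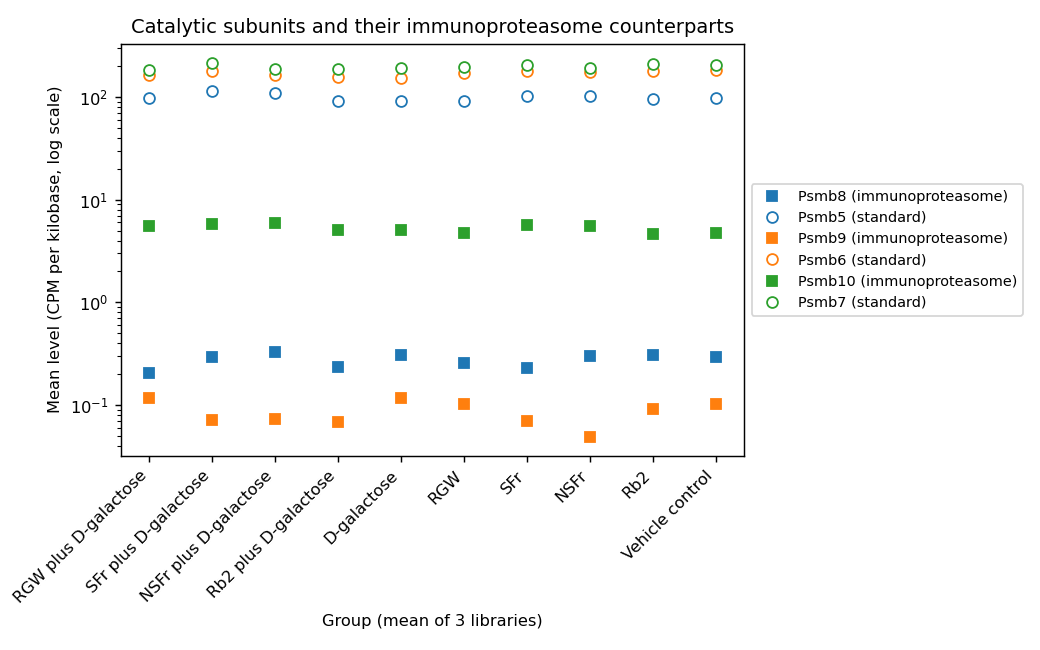
Mean level in CPM per kilobase (log scale) of the catalytic genes Psmb5, Psmb6 and Psmb7 (open circles) and of their immunoproteasome counterparts Psmb8, Psmb9 and Psmb10 (filled squares) in each group. In all 10 groups each filled square lies far below the open circle of its colour, Psmb10 at 2.24% to 3.12% of Psmb7.

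Genes that act on the proteasome but carry other names were read beside the family, in lists picked with earlier results of these data known. Their counts stand beside the shares of all genes given above, 20.3% higher and 21% lower in SFr plus D-galactose against D-galactose, 21.3% and 21.8% in SFr and 11.9% and 13.1% in D-galactose against Vehicle control. Of the NRF1 and assembly list 11 of 12 genes were tested: in SFr plus D-galactose against D-galactose 6 rose and 1 fell, in SFr against Vehicle control 4 rose, and in D-galactose against Vehicle control 2 fell, Sel1l at -0.13 and Syvn1 at -0.12, parts of the membrane complex that pulls misfolded proteins from the endoplasmic reticulum. Nfe2l1, which encodes NRF1, measured 1374, 1359 and 1331 CPM in SFr plus D-galactose and 1133, 1119 and 1130 CPM in D-galactose. In SFr it measured 1369, 1377 and 1354 CPM, against 1105, 1171 and 1124 CPM in Vehicle control. The groups were clearly apart in both, with log2 fold changes of 0.27 ± 0.03 (SE, adjusted p = 8.49e-10, edgeR) and 0.27 ± 0.03 (SE, adjusted p = 4.8e-10, edgeR), called in all 12 alternatives. Nfe2l2, which encodes NRF2, had log2 fold changes of 0.01, not called, in SFr plus D-galactose over D-galactose and of 0.18, called, in SFr over Vehicle control. Pomp, the maturation factor of the core, stood at 100, 104 and 119 CPM in SFr plus D-galactose and 95.1, 81.9 and 87.3 CPM in D-galactose, with no overlap and a log2 fold change of 0.29 (edgeR, adjusted p = 0.00142). The shuttle protein gene Ubqln2 had log2 fold changes of 0.35 in SFr plus D-galactose over D-galactose and 0.27 in SFr over Vehicle control.

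Of 10 tested genes for factors that bind the proteasome, 5 rose and 1 fell in SFr plus D-galactose against D-galactose, and 4 rose and 1 fell in SFr against Vehicle control, beside the same 20.3% and 21.3% of all genes higher. In D-galactose against Vehicle control 2 rose, Zfand2a at 0.12 and the deubiquitinase gene Usp14 at 0.10. Adrm1, the ubiquitin receptor of the cap that lies outside the Psm names, measured 195, 188 and 192 CPM in SFr plus D-galactose and 136, 141 and 136 CPM in D-galactose, a log2 fold change of 0.48 ± 0.04 (SE, adjusted p = 2.15e-12, edgeR). The highest log2 fold change of a Psm gene of the cap in that comparison was the 0.29 of Psmd8, and Adrm1 had 0.44 in SFr over Vehicle control. Zfand2a, a heat- and arsenite-inducible factor that associates with the cap, measured 148, 140 and 149 CPM in SFr plus D-galactose and 85.7, 85.1 and 81.9 CPM in D-galactose, a log2 fold change of 0.79 ± 0.04 (SE, adjusted p = 8.8e-19, edgeR). Each treated library was far above each D-galactose library in both genes. Zfand5, an activator of the proteasome, had a log2 fold change of 0.38 in the same comparison, and the ligase gene Ube3a fell, at -0.22.

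Among genes for ubiquitin and its activation, the activating enzyme gene Uba1 fell at -0.17 on the log2 scale in SFr plus D-galactose against D-galactose. In D-galactose against Vehicle control Rps27a, which encodes ubiquitin fused to a ribosomal protein, fell at -0.29 and the conjugating enzyme gene Ube2d3 at -0.10.

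Of 14 genes of antigen presentation and interferon signalling 8 rose and 1 fell in SFr plus D-galactose against D-galactose, 9 rose in SFr against Vehicle control, and 4 rose and 1 fell in D-galactose against Vehicle control, where 20.3%, 21.3% and 11.9% of all genes rose. Irf9 had log2 fold changes of 0.35 in SFr plus D-galactose over D-galactose and 0.80 in SFr over Vehicle control, and its partner Stat2 of 0.38 and 0.43. Nlrc5, the transactivator of class I genes, measured 0.989, 1.46 and 1.07 CPM in SFr and 0.627, 0.422 and 0.473 CPM in Vehicle control, apart but at low levels (log2 fold change 1.16 ± 0.25, SE, adjusted p = 0.000299, edgeR). Tap1, a subunit of the peptide transporter, measured 2.45, 2.76 and 2.67 CPM in SFr plus D-galactose and 3.98, 3.70 and 4.04 CPM in D-galactose, and it fell without overlap (log2 fold change -0.58, adjusted p = 0.00146, edgeR). H2-D1 rose by 0.33 on the log2 scale, a class I gene whose reads may be split with near-identical relatives.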

How the data were processed

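The submitters' processing notes name RSEM 1.3.3 and STAR 2.7.9a, Trim Galore 0.6.10 and FastQC 0.11.9, with the mouse build GRCm38 (mm10). Neither annotation release nor strandedness of counting is stated in the sources used here. The authors deposited RSEM expected counts per gene symbol for 30 libraries, of which 19.4% of values were not whole. They were rounded to whole numbers here. RSEM shares reads among similar genes, which can blur near copies such as Psme2 and Psme2b.

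Genes were filtered with edgeR's filterByExpr (minimum count 10), scaled by TMM and tested with edgeR 4.0.16 (R 4.3.3) by the quasi-likelihood test in 1 fit of all 10 groups, with 15 pairwise and 5 interaction tests. Benjamini-Hochberg adjustment ran over the 12184 genes tested, with a threshold of 0.05. Levels are CPM on the scaled library sizes, and per-kilobase levels use the length of the APPRIS principal transcript of GENCODE vM21. The family, its symbol rule and the lists were chosen with earlier results of these data known. Values per library are given for the catalytic, immunoproteasome, activator, inhibitor and core chaperone genes, and for the called members with the largest and smallest change of each role, and the text summarises some of them. Psmd7 and Psmd10, and members named in counts of 5 or fewer, were added after their values were seen.

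On simulated counts for SFr plus D-galactose against D-galactose (12184 genes, 50 changed at each fold, levels of 30 to 500 CPM), the test recovered 28% of 1.1-fold, 62% of 1.15-fold, 82% of 1.2-fold and 96% of 1.3-fold changes, with 7 false calls. Each gene was drawn on its own, with no length slope shared among genes. The number of false calls therefore does not cover the slope difference between these groups. Only 50 genes were changed at each fold, while 20.3% of all genes were called higher and 21% lower in the data. The adjusted p threshold depends on that share, so the recovered percentages need not hold for this comparison. Replicates differed by more than sampling noise in all 30 pairs of the same group (chi-square per degree of freedom 2.48 to 13.7). Alternatives were DESeq2 1.42.0, RLE scaling, no filter, fits of only the groups compared, a replicate block, each library left out, and a length slope covariate added after seeing the data. Some genes of the related lists are not reported here, and no count is given for the list of ubiquitin genes.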

Additional observations from a re-analysis of the deposited data

How the results depend on the processing

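No member called with all libraries and no covariate changed direction under any alternative. Some values that were not called, such as that of Psmb5 in SFr against Vehicle control, changed sign. In SFr against NSFr every core gene had a positive log2 fold change with no covariate. With the length slope covariate 1 core gene was called lower there. RLE scaling moved no count of members called by over 1.5 times. With the length slope covariate, chosen after seeing the data, the members called were 13 in D-galactose against Vehicle control, 2 in RGW, 17, all lower, in NSFr and 1 in Rb2 against Vehicle control, 4 in RGW plus D-galactose, 16 in SFr plus D-galactose and 8, of them 7 lower, in NSFr plus D-galactose against D-galactose, 9 (8 lower), 2 and 3 in RGW, SFr and NSFr plus D-galactose against the preparation alone, 2 and 5 for the interactions of RGW and SFr, and 3 over the 5 backgrounds. Without the filter 1 was called in NSFr against Vehicle control and 5 in Rb2 plus D-galactose against Rb2. DESeq2 called 1 in NSFr plus D-galactose against D-galactose. Fits of only the groups compared called 1 in NSFr against Vehicle control, 2 in NSFr plus D-galactose against D-galactose, 0 in RGW plus D-galactose against RGW, 2 in NSFr plus D-galactose against NSFr and 15 in Rb2 plus D-galactose against Rb2. The cause was not tested. For alternatives other than the length slope covariate, among them fits without a library, the shares of all genes called are not given here. Whether the counts of members moved with those of all genes is therefore not shown.

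Leaving out single libraries gave 3 to 7 members called in D-galactose, 11 to 22 in SFr and 1 to 6 in NSFr against Vehicle control, 0 to 1 in RGW plus D-galactose and 19 to 32 in SFr plus D-galactose against D-galactose, 0 to 2, 1 to 5, 0 to 1 and 2 to 7 in RGW, SFr, NSFr and Rb2 plus D-galactose against the preparation alone, 21 to 28 in SFr against NSFr, 23 to 34 in SFr plus D-galactose against NSFr plus D-galactose and 0 to 1 for the interaction of SFr. Replicate numbers did not pair the samples. Deviations from the group mean of log CPM correlated between same-numbered libraries at -0.177 to 0.157. In 0 of 15 comparisons was every correlation over 0.1. A fit with the replicate block called 25 members higher in SFr plus D-galactose against D-galactose, 11 higher and 2 lower in SFr and 1 higher and 5 lower in D-galactose against Vehicle control, and moved no count by over 1.5 times. Values of single genes were followed only for members called with all libraries and no covariate, and for genes named by rule in 3 comparisons. Of these values, 2199 kept their side of the threshold, 236 lost it and 13 gained it. Most members not called at first were left out, so the 13 are not a count of all gains. Depth limited Psmb8, Psmb9 and Psmb11.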
